A study of Rattus norvegicus with 10 samples.

Results

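Transcripts of the cell division machinery were followed in RNA sequencing of the supraoptic nucleus, the hypothalamic nucleus whose magnocellular neurons release vasopressin and oxytocin. The members were 39 genes listed by symbol for known roles in the cell cycle, and 38 of them stood as rows in a deposited table of 32623 rat genes. No row carried the name Ccnb2, which was not analysed here. All 38 had a mean of at least 10 normalized counts over the 10 samples and were tested, the lowest being Ube2c with a mean of 18.4 and the highest Pcna with 2089. A normalized count is a read count divided by a size factor of its sample.

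The tissue came from male Sprague Dawley rats, an outbred strain, that carried adeno-associated viruses in both supraoptic nuclei. The virus on one side delivered a short hairpin RNA against Opn3, which encodes the light-sensitive receptor opsin 3, and the virus on the opposite side a non-targeting hairpin. Nuclei were punched 2 weeks later and extracted individually, giving 5 shControl and 5 shOpn3 samples numbered 1 to 5 in both groups. The controls thus carried a virus and a hairpin too, and no uninjected nucleus was compared here. The age of the rats, the promoters in the viruses and which cells took them up are not given in the sources used here.

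Recovered reads per sample ranged from 33158341 to 39958578. The log2 fold change of Opn3 itself, the target, was -1.82 with a standard error of 0.320 (adjusted p = 0.00226 in limma), although the groups overlapped through shControl replicate 5. Avp and Oxt, which mark the magnocellular neurons of the labelled tissue, had reads in 10 of 10 samples. Summed counts of 8 magnocellular markers lay between 76505 and 192787 in shControl and between 35128 and 65376 in shOpn3.

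In a dividing cell, the replication helicase is loaded on DNA and fired in S phase, and Cdk1 with its cyclins then drives entry into mitosis, where kinases, kinesins and kinetochore proteins build the spindle and separate the chromosomes. The anaphase-promoting complex ends mitosis by marking cyclins for destruction. Mature neurons do not divide, so in brain tissue such transcripts are often read as marks of other cells. These are dividing glial precursors, microglia, vascular cells and immune cells that have entered from the blood. Which cells made each transcript was not measured here, and a transcript alone does not show that a cell divides. In a bulk sample, more cells of a type and more RNA per cell cannot be told apart.

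The comparison asked whether cell cycle transcripts differed between nuclei with the Opn3 hairpin and nuclei with the control hairpin. Of the 38 members, 11 rose in shOpn3 and 0 fell, by limma on log2(normalized count + 1) with an adjusted p under 0.05 over all 15597 genes tested. At an unadjusted p under 0.05 in limma, 14 were higher and 1 was lower (Mcm7). The share of all genes at that unadjusted threshold is not given here, so such counts, also those further below, lack a background. By adjusted p, edgeR called 10 higher and 0 lower. Of all genes tested, 18.8% were called in either direction by limma, 10.4% higher and 8.48% lower (edgeR 10.4% and 9.04%), while 28.9% of the members were called higher. The members that rose were Mcm3, Mcm5, Mcm6 and Rrm2 of DNA replication, cyclin B1 (Ccnb1), the kinases Ttk, Bub1 and Aurka, and the spindle proteins Kif20b, Kif23 and Tpx2. The median log2 fold change of the members was 0.33, against -0.02 for all genes tested. A fold change above 0 was found for 33 of the 38 members and for 47.0% of all genes.

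The count changed when single libraries were left out. In shOpn3 replicate 4, 35 of the 38 members (92.1%) had their highest value of all 10 samples, against 15.6% of all genes tested and 45.8% of the genes called higher. Its 35373481 reads lay inside the range of the other libraries. Without it, 5 members were called higher (Ccnb1, Kif23, Mcm6, Rrm2 and Ttk) and 1 lower (Mcm7). These 6 were 15.8% of the members, while 16.2% of all genes were called in the same samples, so that the share of members called was close to the share of all genes. The median log2 fold change of the members was then 0.18, and 27 of 38 lay above 0.

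Other libraries also moved the count. It was 5 without shControl replicate 2, 3 or 4 or shOpn3 replicate 3, and 6 without shControl replicate 1 or shOpn3 replicate 5, whereas it was 8 without shOpn3 replicate 2, 9 without shControl replicate 5 and 11 without shOpn3 replicate 1. The share of all genes called moved as well, from 18.8% with all samples to between 12.7% (without shOpn3 replicate 3) and 19.6% (without shOpn3 replicate 1). Where 5 or 6 members were called, 13.2% or 15.8% of the members stood against 12.7% to 16.9% of all genes. These shares pool higher and lower genes and are not split by direction here. Ttk and Mcm6 were called in each of the 26 alternative fits, Ccnb1 and Kif23 in 25 and Rrm2 in 24. The other 6 called members (Aurka, Bub1, Kif20b, Mcm3, Mcm5 and Tpx2) lost the call in 11 to 15 of those fits, with the same direction each time.

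**Figure D1:**
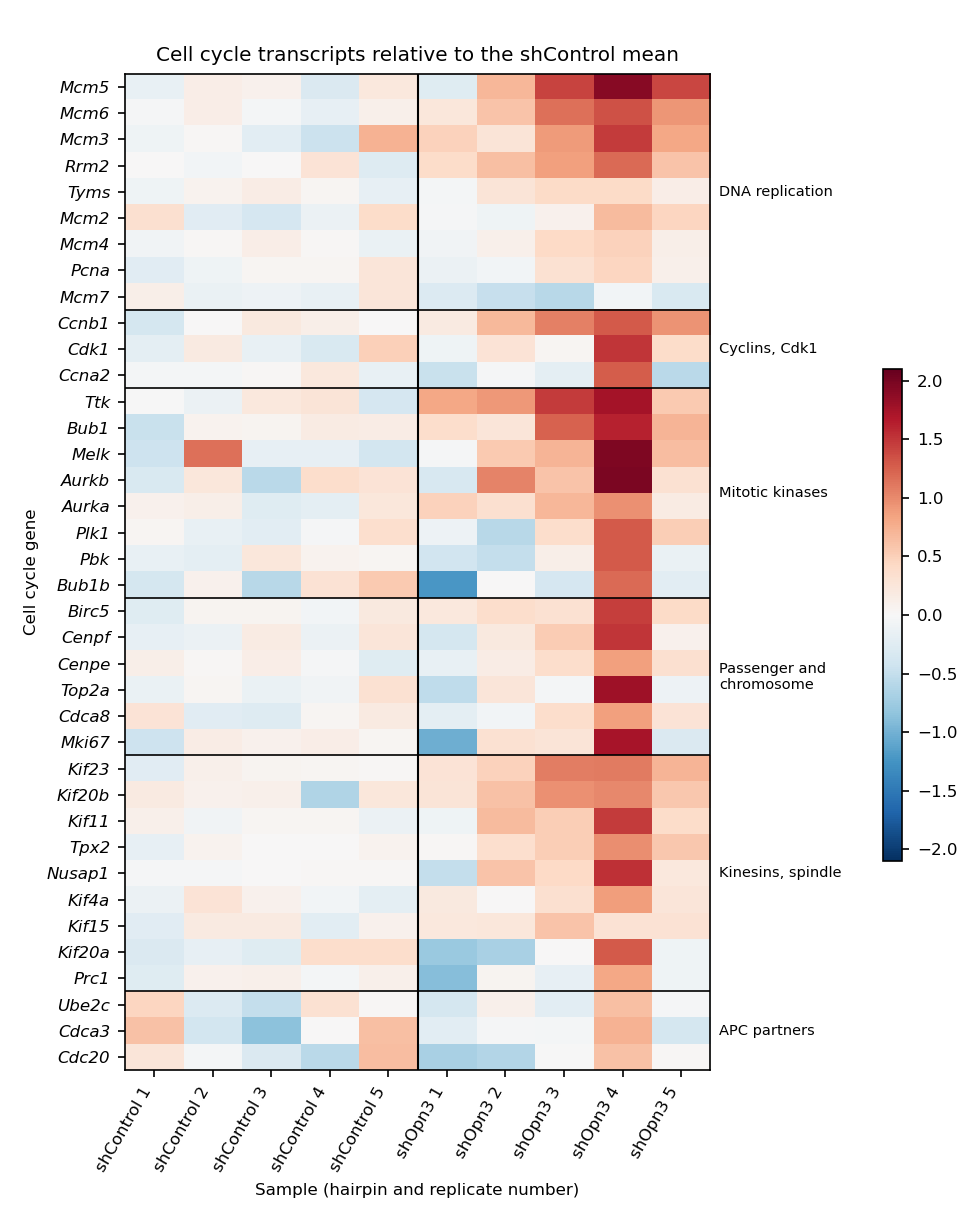
Each row is a cell cycle gene and each column a sample, with the colour giving log2(normalized count + 1) minus the mean of the 5 shControl samples. The genes stand in role groups separated by lines, where APC is the anaphase-promoting complex. The column of shOpn3 replicate 4 is the darkest red and holds the highest value for 35 of the 38 genes, while shOpn3 replicate 1 is mixed.

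Regulatory sequence in front of the members was examined because cell cycle genes are known to share promoter elements and 35 of the 38 members were highest in the same library. Replication genes are controlled mainly through E2F sites, and genes of mitosis through an element called CHR, often beside CCAAT boxes. RefSeq promoters of assembly GRCr8 were found for 31 of the 38 members, and the 250 bases before each annotated start were searched on both strands. The letters searched were TTTGAA and TTCGAA for CHR, CCAAT for the CCAAT box, and TTTCCCGC, TTTCGCGC, TTTGCCGC and TTTGGCGC for E2F, where matches of the E2F forms may overlap each other.

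CHR letters stood in 13 of the 31 windows (41.9%), against 17.4% of all 33469 windows in the table. CCAAT boxes stood in 24 (77.4%, against 34.0%) and E2F letters in 6 (19.4%, against 1.73%). Of the 9 called members with a window, 2 held CHR letters, 7 a CCAAT box and 2 E2F letters. Of the 22 members that were not called, 11 held CHR letters, 17 a CCAAT box and 4 E2F letters. A match describes the letters and does not show that a factor binds there, and other forms of these elements were not searched.

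Windows are shown for members picked as examples from those called and those not called, not by a rule. They run 5′ to 3′ on the strand of the gene, with all matches in capitals. Mcm6 (chr13:42404353-42404602, minus strand) is a called replication gene and holds overlapping E2F letters with CCAAT boxes. Ttk (chr8:93634389-93634638, plus strand) and Ccnb1 (chr2:33655226-33655475, minus strand) were called and hold CCAAT boxes and none of the CHR or E2F letters searched. Kif23 (chr8:71320585-71320834, minus strand) was called and holds a CCAAT box just before CHR letters. Mki67 (chr1:199952594-199952843, minus strand), Top2a (chr10:84473094-84473343, minus strand) and Cdk1 (chr20:19265043-19265292, plus strand) were not called and were high in shOpn3 replicate 4. Each of these 3 holds 2 CHR matches with CCAAT boxes, and Cdk1 holds E2F letters as well. They do not stand for all 22 windows of members not called, of which 11 held CHR letters. A match on the opposite strand appears as its reverse complement, so that a CCAAT box can read ATTGG.
Mcm6: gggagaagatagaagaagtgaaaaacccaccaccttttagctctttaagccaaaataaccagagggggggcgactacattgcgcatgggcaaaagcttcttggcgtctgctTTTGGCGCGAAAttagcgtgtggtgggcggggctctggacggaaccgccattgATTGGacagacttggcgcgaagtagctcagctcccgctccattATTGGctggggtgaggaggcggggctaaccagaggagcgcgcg
Ttk: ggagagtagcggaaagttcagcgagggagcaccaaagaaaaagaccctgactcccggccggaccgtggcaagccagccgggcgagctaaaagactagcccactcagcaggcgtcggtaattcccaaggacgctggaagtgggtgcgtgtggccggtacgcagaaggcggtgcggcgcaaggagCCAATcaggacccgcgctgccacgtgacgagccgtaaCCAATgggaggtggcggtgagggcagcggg
Ccnb1: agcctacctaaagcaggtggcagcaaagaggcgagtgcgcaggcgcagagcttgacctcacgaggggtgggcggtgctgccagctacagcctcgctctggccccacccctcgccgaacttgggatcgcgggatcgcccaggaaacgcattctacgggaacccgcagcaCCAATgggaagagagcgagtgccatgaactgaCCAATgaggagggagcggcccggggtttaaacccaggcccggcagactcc
Kif23: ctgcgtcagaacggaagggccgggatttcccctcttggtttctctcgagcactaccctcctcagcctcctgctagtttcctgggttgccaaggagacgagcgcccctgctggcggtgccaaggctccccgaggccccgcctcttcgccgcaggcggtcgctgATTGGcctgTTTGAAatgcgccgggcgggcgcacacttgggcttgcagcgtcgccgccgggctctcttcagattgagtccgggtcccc
Mki67: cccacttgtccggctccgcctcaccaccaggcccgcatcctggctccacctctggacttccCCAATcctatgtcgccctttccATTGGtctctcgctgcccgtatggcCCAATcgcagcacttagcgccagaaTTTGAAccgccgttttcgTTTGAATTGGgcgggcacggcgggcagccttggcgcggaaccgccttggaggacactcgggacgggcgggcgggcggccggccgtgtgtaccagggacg
Top2a: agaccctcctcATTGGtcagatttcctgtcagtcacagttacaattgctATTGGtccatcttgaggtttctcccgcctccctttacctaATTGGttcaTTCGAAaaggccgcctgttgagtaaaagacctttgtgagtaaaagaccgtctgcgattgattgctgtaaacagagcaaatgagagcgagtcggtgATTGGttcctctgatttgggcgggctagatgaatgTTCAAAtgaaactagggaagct
Cdk1: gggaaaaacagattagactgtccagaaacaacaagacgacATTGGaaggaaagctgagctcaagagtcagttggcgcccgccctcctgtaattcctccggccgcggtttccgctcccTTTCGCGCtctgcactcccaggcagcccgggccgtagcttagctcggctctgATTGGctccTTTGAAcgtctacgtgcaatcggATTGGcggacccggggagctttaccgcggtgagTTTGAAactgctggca

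The replication genes act in S phase. Mcm2 to Mcm7 encode the 6 subunits of the replicative helicase, and Rrm2 the small subunit of ribonucleotide reductase, which makes DNA precursors. Of the 9 genes in this group, 4 rose, 0 fell and 5 did not pass the test.

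Mcm6 (ENSRNOG00000003703) had 285, 322, 282, 257 and 315 normalized counts in shControl replicates 1 to 5 and 344, 444, 649, 736 and 558 in shOpn3 replicates 1 to 5. The groups did not overlap, and shOpn3 replicate 1 lay nearest to the controls. The mean rose from 292 ± 26.3 to 546 ± 156 (SD, n = 5 each), a log2 difference of 0.85 (standard error 0.181; adjusted p = 0.00635 in limma). Mcm5 (ENSRNOG00000014336) had 57.1, 70.2, 67.4, 51.5 and 73.8 normalized counts in shControl replicates 1 to 5 and 52.8, 103, 171, 242 and 168 in shOpn3 replicates 1 to 5. Its shOpn3 replicate 1 was below 4 of the 5 controls, and the other shOpn3 samples were above all of them. It rose by 1.03 in log2 units (standard error 0.334; adjusted p = 0.0491 in limma), the largest difference of this group but with a call close to the threshold. Mcm3 (ENSRNOG00000012543) had 91.8, 98.7, 83.7, 71.2 and 162 normalized counts in shControl replicates 1 to 5 and 137, 118, 181, 270 and 172 in shOpn3 replicates 1 to 5. Here shControl replicate 5 was high and overlapped the shOpn3 samples. Mcm3 rose by 0.79 in log2 units (standard error 0.250; adjusted p = 0.0462 in limma). Rrm2 (ENSRNOG00000054286) had 50.0, 47.8, 50.0, 60.9 and 41.1 normalized counts in shControl replicates 1 to 5 and 65.2, 77.5, 90.6, 115 and 76.0 in shOpn3 replicates 1 to 5. Every shOpn3 value was above every control. Rrm2 rose by 0.74 in log2 units (standard error 0.179; adjusted p = 0.0128 in limma).

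The other subunits of the helicase gave smaller or negative values. Mcm2 and Mcm4 had log2 fold changes of 0.22 and 0.21 (standard errors 0.188 and 0.112) and were not called. Mcm7 (ENSRNOG00000001349) had 824, 682, 703, 679 and 903 normalized counts in shControl replicates 1 to 5 and 618, 541, 501, 723 and 604 in shOpn3 replicates 1 to 5. The shOpn3 nucleus was the lower of the pair for 4 of 5 numbers, with shOpn3 replicate 4 again the highest of its group. Its log2 fold change was -0.34 (standard error 0.119; adjusted p = 0.0628 in limma). In the fit blocked on replicate number the adjusted p was 0.0325, and over all alternatives it ranged from 0.0277 to 0.184. The authors' deposited table listed Mcm7 with a log2 fold change of -0.34 (standard error 0.129) and an adjusted p of 0.0396.

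Pcna (ENSRNOG00000021264), the clamp that holds DNA polymerase on its template, had 1662, 1846, 2037, 2024 and 2338 normalized counts in shControl replicates 1 to 5 and 1803, 1892, 2461, 2704 and 2122 in shOpn3 replicates 1 to 5. The groups overlapped widely, and only shOpn3 replicates 3 and 4 exceeded every control. The log2 fold change was 0.14 (standard error 0.124; adjusted p = 0.475 in limma). Tyms, which encodes thymidylate synthase, was higher in 5 of 5 pairs, with a log2 fold change of 0.23 (standard error 0.109; adjusted p = 0.166 in limma). It was called with the replicate number as a block (adjusted p = 0.0445; 0.0445 to 0.359 over all alternatives).

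Among the cyclins and Cdk1, 1 of 3 genes rose and 2 did not pass the test. Ccnb1 (ENSRNOG00000058539), the cyclin that brings Cdk1 into mitosis, had 66.3, 86.5, 99.0, 93.6 and 86.5 normalized counts in shControl replicates 1 to 5 and 97.9, 138, 180, 210 and 165 in shOpn3 replicates 1 to 5. Only shControl replicate 3, at 99.0, and shOpn3 replicate 1, at 97.9, kept the groups from separating. The mean rose from 86.4 ± 12.4 to 158 ± 42.5 (SD, n = 5 each), which is 0.83 in log2 units with a standard error of 0.200 (adjusted p = 0.0122 in limma).

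Its kinase partner showed another pattern. Cdk1 (ENSRNOG00000000632) had 34.7, 45.8, 35.7, 31.8 and 57.0 normalized counts in shControl replicates 1 to 5 and 37.4, 48.9, 41.1, 115 and 52.4 in shOpn3 replicates 1 to 5. Apart from shOpn3 replicate 4, every shOpn3 value was below the highest control. The log2 fold change was 0.42 (standard error 0.291; adjusted p = 0.354 in limma), and 0.15 without that library. Ccna2, the cyclin of S phase and early mitosis, had 35.9 to 46.8 normalized counts in the shControl samples, 98.5 in shOpn3 replicate 4 and at most 39.3 in the other shOpn3 samples. Its log2 fold change of 0.00 (standard error 0.306) became -0.31 without that library, and it was called in neither fit.

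**Figure D2:**
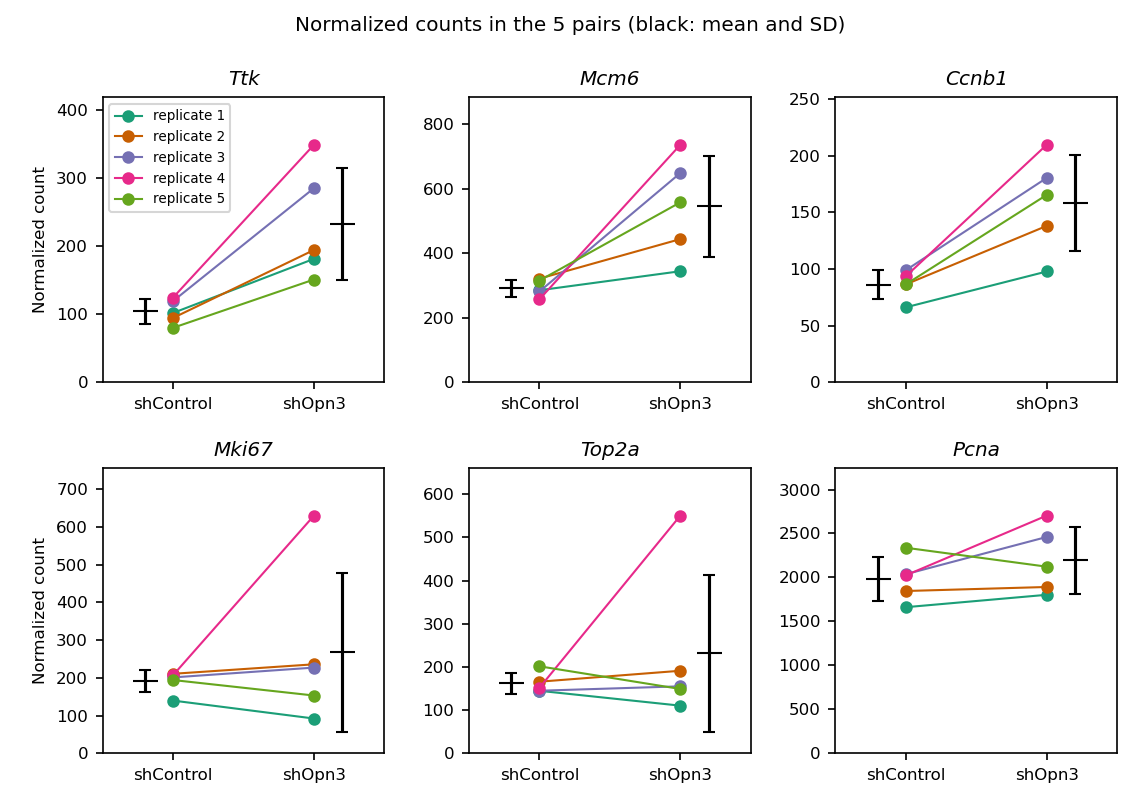
Normalized counts of 6 cell cycle genes, with a line joining the nuclei of the same replicate number and the group mean and SD (n = 5) in black beside the points. All 5 lines rise for Ttk, Mcm6 and Ccnb1, whereas for Mki67 and Top2a shOpn3 replicate 4 stands apart at 630 and 551 and the other shOpn3 samples lie among the controls or near them.

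The mitotic kinases included the gene with the largest log2 fold change of all members. Ttk (ENSRNOG00000029055), a kinase of the spindle checkpoint that delays chromosome separation until every chromosome is attached, had 102, 94.6, 119, 125 and 80.2 normalized counts in shControl replicates 1 to 5 and 181, 194, 285, 349 and 151 in shOpn3 replicates 1 to 5. The lowest shOpn3 value, in replicate 5, was above the highest control. The mean rose from 104 ± 18.2 to 232 ± 82.1 (SD, n = 5 each), a log2 difference of 1.10 (standard error 0.223; adjusted p = 0.00504 in limma). Without shOpn3 replicate 4 it was 0.93 (standard error 0.198; adjusted p = 0.00875 in limma).

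Bub1 (ENSRNOG00000032778), another kinase of the checkpoint, had 53.0, 77.3, 76.5, 82.4 and 82.3 normalized counts in shControl replicates 1 to 5 and 95.0, 88.2, 174, 228 and 121 in shOpn3 replicates 1 to 5. The groups did not overlap, but shOpn3 replicates 1 and 2 were close to the controls. Bub1 rose by 0.84 in log2 units (standard error 0.254; adjusted p = 0.0365 in limma). Without shOpn3 replicate 4 the adjusted p was 0.0708 (0.00412 to 0.140 over all alternatives). Aurka (ENSRNOG00000004479), the kinase of spindle poles, had 161, 166, 128, 132 and 180 normalized counts in shControl replicates 1 to 5 and 214, 191, 246, 296 and 172 in shOpn3 replicates 1 to 5. Its shOpn3 replicate 5 lay below the control of the same number, and the other 4 pairs were higher in shOpn3. Aurka rose by 0.53 in log2 units (standard error 0.163; adjusted p = 0.0404 in limma). The call was lost with the replicate number as a block (adjusted p = 0.0595; 0.0107 to 0.189 over all alternatives).

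The other 5 kinases did not pass the test, and their log2 fold changes lay between -0.12 for Bub1b and 0.77 for Melk. Aurkb, the kinase of the chromosomal passenger complex, had a log2 fold change of 0.72 (standard error 0.374; adjusted p = 0.209 in limma). Its value in shOpn3 replicate 4 was 119, against at most 61.6 in the other shOpn3 samples and 19.4 to 38.4 in the controls. Plk1, the polo kinase of mitotic entry, had a log2 fold change of 0.30 and Pbk, a mitotic kinase, of 0.07 (standard errors 0.309 and 0.305). Plk1, Pbk and Bub1b likewise had their highest value of all samples in that library. Few reads stood behind several of these genes. Of the 11 members with a mean under 50 normalized counts, limma called 0 (1 at an unadjusted p under 0.05), the block fit 0, edgeR 0 and DESeq2 0. Melk, a kinase of cycling cells, was 1 of these 11, with 9.18 to 29.5 normalized counts in shControl, 12.5 to 52.2 in shOpn3 and a standard error of 0.395 on the log2 scale.

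Of the 9 kinesins and spindle proteins, 3 rose, 0 fell and 6 did not pass the test. Kif23 (ENSRNOG00000014080), a kinesin of the central spindle needed for cytokinesis, had 85.6, 110, 106, 105 and 103 normalized counts in shControl replicates 1 to 5 and 124, 142, 215, 218 and 167 in shOpn3 replicates 1 to 5. The groups did not overlap for this gene. The mean rose from 102 ± 9.45 to 173 ± 42.4 (SD, n = 5 each), which is 0.73 in log2 units with a standard error of 0.171 (adjusted p = 0.0108 in limma). Kif20b (ENSRNOG00000018929), a kinesin that also acts in cytokinesis, had 75.4, 70.2, 71.4, 42.1 and 78.1 normalized counts in shControl replicates 1 to 5 and 79.6, 102, 129, 133 and 97.6 in shOpn3 replicates 1 to 5. The groups did not overlap, although shControl replicate 5 and shOpn3 replicate 1 nearly met. It rose by 0.68 in log2 units (standard error 0.204; adjusted p = 0.0351 in limma). Tpx2 (ENSRNOG00000008165), which nucleates spindle microtubules and activates Aurka, had 159, 188, 181, 180 and 189 normalized counts in shControl replicates 1 to 5 and 182, 228, 258, 353 and 264 in shOpn3 replicates 1 to 5. Only shOpn3 replicate 1 lay within the range of the controls. Tpx2 rose by 0.49 in log2 units (standard error 0.156; adjusted p = 0.0475 in limma).

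Without shOpn3 replicate 4, Kif23 kept the call (adjusted p = 0.0257; 0.000356 to 0.0566 over all alternatives), and the adjusted p of Kif20b and Tpx2 was 0.0813 (0.00751 to 0.139) and 0.0913 (0.0106 to 0.151). Kif15, a kinesin that helps to hold the spindle open, was the gene of this group whose highest value lay elsewhere, at 307 in shOpn3 replicate 3. It was higher in 5 of 5 pairs with no overlap of the groups, and its log2 fold change of 0.33 (standard error 0.129) missed the threshold (limma adjusted p = 0.0971) and passed it with the replicate block (adjusted p = 0.0398; 0.0398 to 0.256 over all alternatives). Kif11, the motor that separates the spindle poles, had a log2 fold change of 0.59 (standard error 0.232; adjusted p = 0.101 in limma), and the authors' deposited table gave 0.69 with an adjusted p of 0.0325. Prc1 and Kif20a, both of the central spindle, had log2 fold changes of -0.06 and -0.05 (standard errors 0.247 and 0.351), and were called in no fit. Kif4a, a kinesin bound to chromosomes, and Nusap1, which bundles spindle microtubules, had log2 fold changes of 0.34 and 0.46 (standard errors 0.172 and 0.294).

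The 6 proteins of chromosomes, kinetochores and the passenger complex held the best-known markers of dividing cells, and limma called 0 of them (1 at an unadjusted p under 0.05, namely Birc5). The block fit, edgeR and DESeq2 called 0 as well. Mki67 (ENSRNOG00000028137), which encodes the Ki-67 antigen that coats mitotic chromosomes, had 140, 211, 201, 207 and 194 normalized counts in shControl replicates 1 to 5 and 92.1, 236, 227, 630 and 153 in shOpn3 replicates 1 to 5. The value of shOpn3 replicate 4 was 2.67 times the next highest of its group, and shOpn3 replicate 1 was the lowest of all samples. The log2 fold change was 0.20 (standard error 0.388; adjusted p = 0.768 in limma), and -0.18 without shOpn3 replicate 4.

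Top2a (ENSRNOG00000053047), the topoisomerase that untangles replicated DNA, had 145, 166, 145, 152 and 201 normalized counts in shControl replicates 1 to 5 and 110, 191, 155, 551 and 149 in shOpn3 replicates 1 to 5. The same library stood apart from the other shOpn3 samples, which lay within or below the range of the controls. Its log2 fold change was 0.27 (standard error 0.342; adjusted p = 0.637 in limma), and -0.11 without that library. Cenpe (ENSRNOG00000009339), the kinesin of the kinetochore, had 228, 213, 230, 205 and 176 normalized counts in shControl replicates 1 to 5 and 187, 234, 272, 383 and 264 in shOpn3 replicates 1 to 5. The groups overlapped through shOpn3 replicate 1. Its log2 fold change was 0.31 (standard error 0.169; adjusted p = 0.228 in limma). Cenpf of the kinetochore and Cdca8 of the passenger complex had log2 fold changes of 0.39 and 0.25 (standard errors 0.284 and 0.214). Birc5, which encodes survivin of the passenger complex, did not overlap between the groups, with 20.4 to 28.5 in shControl and 28.8 to 68.6 in shOpn3. Without 68.6 in shOpn3 replicate 4 its highest shOpn3 value was 32.9, and its log2 fold change of 0.55 (standard error 0.244) was not called (limma adjusted p = 0.140).

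The 3 partners of the anaphase-promoting complex had log2 fold changes between -0.13 and 0.02, and limma, the block fit, edgeR and DESeq2 called 0 of them (limma 0 also at an unadjusted p under 0.05). Cdc20 (ENSRNOG00000028415), which activates the complex, had 80.5, 65.1, 54.1, 44.9 and 105 normalized counts in shControl replicates 1 to 5 and 41.3, 43.5, 66.4, 103 and 67.8 in shOpn3 replicates 1 to 5. Its highest value was in shControl replicate 5 and its lowest in shOpn3 replicate 1, so the groups overlapped throughout. The log2 fold change was -0.13 (standard error 0.285; adjusted p = 0.787 in limma). Ube2c, the ubiquitin-conjugating enzyme of the complex, and Cdca3, a mitotic-entry factor, had log2 fold changes of 0.02 and 0.02 (standard errors 0.266 and 0.320).

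**Figure D3:**
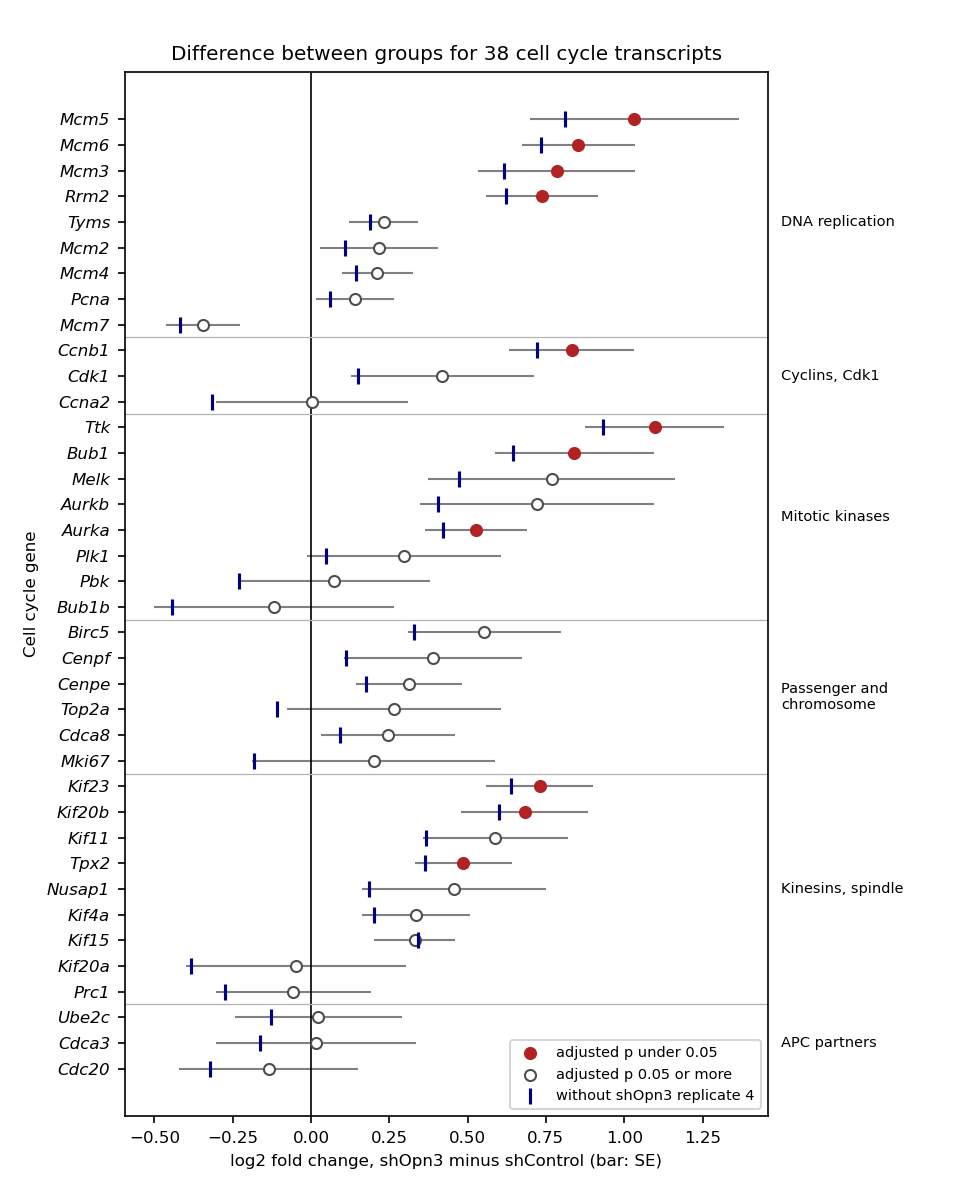
Log2 fold change of each cell cycle gene, shOpn3 minus shControl, with its standard error as a bar (5 samples per group). Filled points are the 11 genes with an adjusted p in limma under 0.05, open points the other 27, and blue ticks the value without shOpn3 replicate 4, which lies to the left of the point for every gene except Kif15.

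Pairs of nuclei with the same number, which no label names as nuclei of the same rat, differed in how far the transcripts moved. In pair 4, 38 of 38 members were higher in shOpn3, with a median log2 difference of 1.16. In pair 3 this held for 34, with a median of 0.41, and in pair 2 for 29, with a median of 0.19. In pair 5 it held for 23 members (median 0.12) and in pair 1 for 17 (median -0.07). Over all genes the median difference of a pair lay between -0.03 and 0.00. A rise in 5 of 5 pairs was found for 12 members (31.6%), against 18.7% of all genes, and a fall in 5 of 5 pairs for 0 members, against 20.7% of all genes. The groups did not overlap for 8 members, all higher in shOpn3 (21.1%, against 8.03% of all genes higher and 7.23% lower). Without shOpn3 replicate 4, 8 members were higher without overlap and 1 was lower, while 9.72% of all genes were higher and 8.33% lower without overlap.

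**Figure D4:**
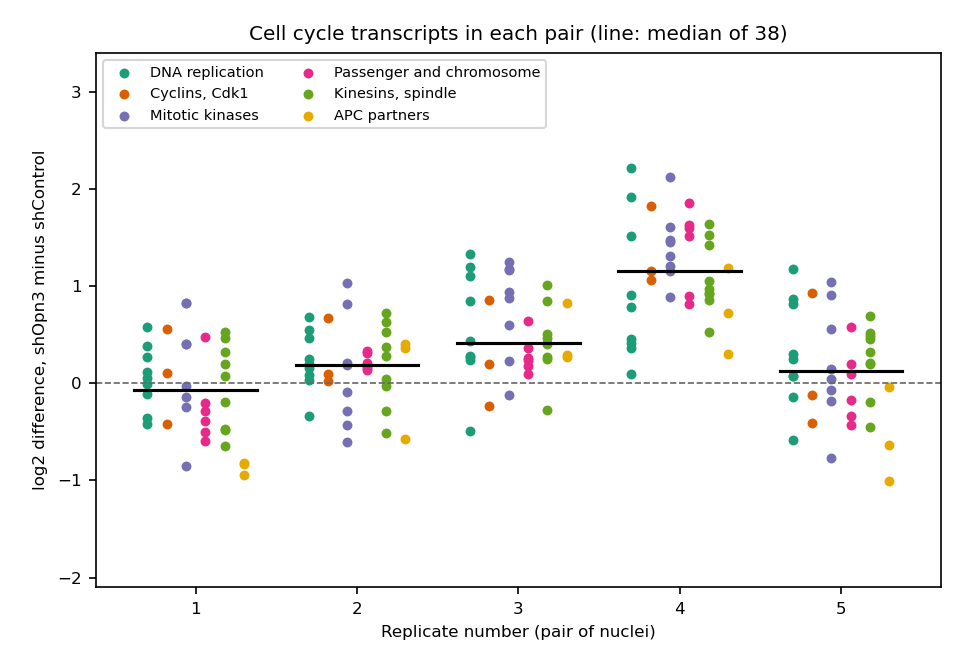
Each point is the log2 difference of a cell cycle gene between the shOpn3 and the shControl nucleus of the same replicate number, coloured by role group, and the black line is the median of the 38 genes. The medians run from -0.07 in pair 1 to 1.16 in pair 4, where every point lies above 0.

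The members also varied together within the groups. After the group means were removed, the median correlation of log2 values between members was 0.64 over 703 pairs of genes and 10 samples, and 97.4% of the correlations were above 0. Without shOpn3 replicate 4 the median was 0.33 and 77.7% were above 0. These values come from the same libraries for every pair of genes and are given as a description. The median SD within a group was 0.40 on the log2 scale for the members and 0.21 for all genes tested. It was 0.33 for the called members and 0.50 for those not called. The call itself depends on this SD, so that split cannot be read as a trait of the called members.

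Across all genes, samples of numbers 1, 2, 3 and 5 deviated together (r of 0.39 to 0.44). Number 4, with an r of 0.12, lay within the range of unmatched samples. For this reason the block fit is given beside the unpaired one. It called 12 members higher and 1 lower (15.1% and 15.2% of all genes, 30.3% in all). Kif15 and Tyms were added as higher and Mcm7 as lower, and Aurka was lost. The authors' deposited table, an unpaired comparison, listed 12 members as higher and 1 as lower at an adjusted p under 0.05 (11.4% and 9.89% of the genes with an adjusted p, 21.3% in all). These were the 11 named above with Kif11, and Mcm7 as the lower gene.

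The wider pathway was read from 6 further lists with 98 genes tested, of which 14 rose (14.3%, against 10.4% of all genes) and 7 fell (7.14%, against 8.48%), so that their share of 21.4% lay near the 18.8% of all genes. Their median log2 fold change was 0.15. With the replicate block 22 were higher and 9 lower, in a fit that called 15.1% of all genes higher and 15.2% lower. Among 26 factors of replication licensing, forks and repair, 3 rose (11.5%, against 10.4% of all genes) and 0 fell by limma, with a median of 0.17. The counts were 6 and 0 at an unadjusted p under 0.05, 4 and 0 by edgeR, and 5 and 0 with the replicate block. Pola1, a DNA polymerase subunit, rose by 0.51 in log2 units (standard error 0.148; adjusted p = 0.0302 in limma), Gins3 of the helicase complex by 0.48 (standard error 0.126) and Brca1 of DNA repair by 0.44 (standard error 0.138).

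Among 34 further mitotic genes, counted by identifier since Spag5 stood beside 2, 6 rose, 2 fell and 26 did not pass the test (median 0.29). That is 17.6% higher and 5.88% lower, against 10.4% and 8.48% of all genes. Knl1, a kinetochore scaffold, rose by 1.32 in log2 units (standard error 0.262; adjusted p = 0.00445 in limma), the phosphatase gene Cdc25c, which activates Cdk1, by 0.87 (standard error 0.250), and Cenpk of the kinetochore by 0.83 (standard error 0.227). Knl1 had 31.6, 24.4, 19.4, 17.8 and 16.9 normalized counts in shControl replicates 1 to 5 and 40.3, 61.6, 55.1, 91.8 and 40.1 in shOpn3 replicates 1 to 5. Its groups did not overlap. The members of this list that fell were Anln and Stmn1, the latter named after its values were seen. Anln, a scaffold of the cytokinetic ring that myelinating oligodendrocytes also make, fell from 3255 ± 727 to 1133 ± 334 (SD, n = 5 each), which is -1.55 in log2 units with a standard error of 0.201. Stmn1, a microtubule regulator abundant in neurons, had a log2 fold change of -0.61 (standard error 0.108). All 8 markers of mature oligodendrocytes fell, with a median log2 fold change of -1.27, and their part in the fall of Anln was not tested.

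Genes that act before S phase were read next. Of 8 G1 cyclins and kinases, 1 rose and 1 fell (12.5% each, against 10.4% and 8.48% of all genes). With the replicate block the counts were 2 and 2, in a fit that called 15.1% of all genes higher and 15.2% lower. Cdk6, a partner of the D cyclins, rose from 34.1 ± 5.98 to 61.6 ± 9.74 (SD, n = 5 each), which is 0.84 in log2 units with a standard error of 0.178 (adjusted p = 0.00644 in limma), and Ccne2, a cyclin of the start of S phase, fell from 396 ± 26.9 to 267 ± 39.6 (-0.58 in log2 units, standard error 0.118; adjusted p = 0.00519 in limma). Of 17 genes of the retinoblastoma, E2F and DREAM group, 1 rose and 2 fell. Their share of 17.6% called lay near the 18.8% of all genes. Rbl1, which encodes the pocket protein p107 and is itself made in cycling cells, rose by 0.71 in log2 units (standard error 0.151). The repressor gene E2f6 had a log2 fold change of -0.36 and Tfdp2, an E2F partner, of -0.24 (standard errors 0.0897 and 0.0700).

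Inhibitors and genes of cell cycle exit were read last. Of 6 cyclin-dependent kinase inhibitors tested, Cdkn1b, the p27 gene that holds cells in quiescence and is abundant in oligodendrocytes, fell from 2050 ± 154 to 1457 ± 109 (SD, n = 5 each), which is -0.49 in log2 units with a standard error of 0.0780 (adjusted p = 0.00126 in limma). The other 5 did not pass the unpaired test. The replicate block called 3 of them higher, namely Cdkn2b (log2 fold change 0.49, block adjusted p = 0.0194, limma 0.0939 without the block), Cdkn3 (0.57, 0.0333 and 0.0935) and Cdkn1a, the first 2 named after their values were seen. Cdkn1a, the p21 gene and a target of p53, had 294, 243, 209, 234 and 359 normalized counts in shControl replicates 1 to 5 and 279, 343, 450, 842 and 465 in shOpn3 replicates 1 to 5. Its highest value was in shOpn3 replicate 4, and shOpn3 replicates 1 and 2 lay within the range of the controls. The log2 fold change was 0.75 (standard error 0.255; adjusted p = 0.0606 in limma, 0.0489 with the replicate block and 0.0473 in edgeR). Of 7 genes of quiescence and exit, the antiproliferative genes Btg1 and Btg2 rose by 0.51 and 0.69 in log2 units (standard errors 0.118 and 0.135), Ccng1, a p53 target, rose by 0.51 in log2 units (standard error 0.114), and Tob1 had a log2 fold change of -0.23 (standard error 0.0708; adjusted p = 0.0437 in limma).

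Markers of cell types that can divide or enter the tissue were read beside the members. Of 10 microglial markers 9 rose and 1 did not pass the test, and their summed count was 15987 to 19650 in shControl and 30988, 25943, 40821, 50203 and 35819 in shOpn3 replicates 1 to 5. Its highest value was in shOpn3 replicate 4, as for the members, and its lowest shOpn3 value in replicate 2, while the mean level of the members was lowest in replicate 1. Of 9 lymphocyte markers tested 6 rose and 3 did not pass the test. Cd4 made up most of their sum, and rat macrophages and microglia make it too. Without Cd4 the lymphocyte sum was 74.5 to 176 in shControl and 172, 178, 293, 471 and 218 in shOpn3 replicates 1 to 5. Gzmb was listed at 0 in all samples.

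Cd3e, a subunit of the T cell receptor complex, had 10.2, 17.3, 13.3, 29.0 and 23.2 normalized counts in shControl replicates 1 to 5 and 28.8, 28.7, 76.6, 98.5 and 46.2 in shOpn3 replicates 1 to 5. It was highest in shOpn3 replicates 4 and 3, replicates 1 and 2 lay just below the highest control, and it rose by 1.45 in log2 units (standard error 0.384; adjusted p = 0.0200 in limma). Of 8 markers of oligodendrocyte precursors, which are the main dividing cells of adult brain tissue, 0 rose, 3 fell and 5 did not pass the limma test (0 higher and 4 lower at an unadjusted p under 0.05, 0 and 3 by edgeR). The genes called lower were Sox10, Olig1 and Olig2, with log2 fold changes of -1.12, -0.88 and -0.71. Pdgfra, the receptor of these precursors for platelet-derived growth factor, had a log2 fold change of -0.02 (standard error 0.0951). That of Cspg4 was -0.14 (standard error 0.169), and neither was called. Of the 8 log2 fold changes, 0 lay above 0. Of 8 astrocyte markers 3 rose and 5 did not pass the test, and of 6 markers of monocytes and neutrophils 3 rose and 3 did not pass the test. In the latter list Plac8, Lyz2 and Mrc1 rose. S100a8, S100a9 and Cd163 were not called, with log2 fold changes of -0.61, -0.25 and 0.42. Of 6 endothelial and 4 ependymal markers, limma and edgeR called 0 (1 lower of each list at an unadjusted p under 0.05), and the block fit called 1 endothelial marker higher. The part of these cell types in the rise of the cell cycle transcripts was not tested.

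**Figure D5:**
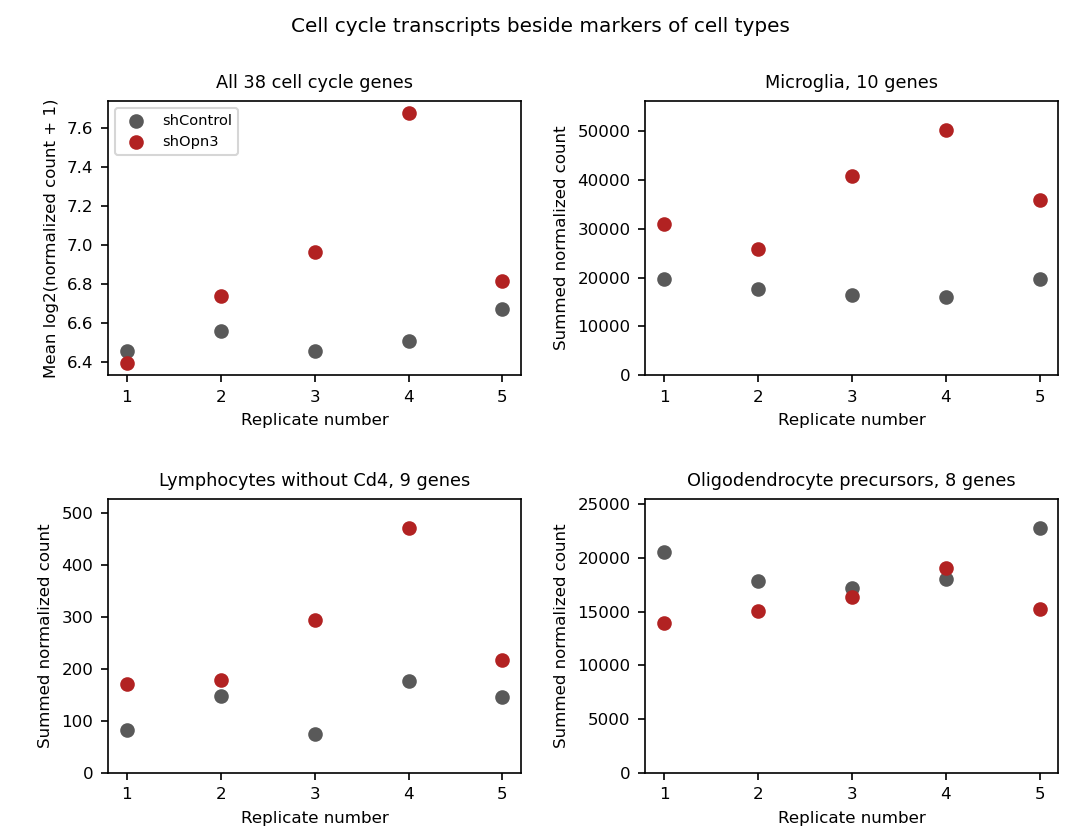
By replicate number, the mean log2 level of the 38 cell cycle genes and the summed normalized counts of markers of microglia, of lymphocytes without Cd4 and of oligodendrocyte precursors, for shControl (grey) and shOpn3 (red). In shOpn3 replicate 4 each of the 4 measures had its highest shOpn3 value, and the cell cycle level of shOpn3 replicate 1 lay just below that of shControl replicate 1.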

How the data were processed

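RNA sequencing of rat supraoptic nuclei had been deposited as a single table with 10 sample columns. Per the submitters' processing notes, FastQC, STAR, featureCounts and DESeq2 were used; their versions, the genome build, the annotation and the strand setting are not given in the sources used here. The sample columns hold signal, namely gene counts divided by size factors, per the file headers and values. Multiplying back gave whole reads for 100% of values (tolerance 0.001). The deposited table also holds the authors' log2 fold changes with standard errors, a test statistic (score), and p-values with adjusted p-values. Refitting DESeq2 on the recovered reads returned these log2 fold changes, with 0 differing by more than 1e-04.

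Genes with a mean of at least 10 normalized counts (15597) were compared on log2(normalized count + 1) in limma 3.58.1 (R 4.3.3) with a trended variance and Benjamini-Hochberg adjustment at 0.05. The fit was tried on simulated counts with the same dispersion for every gene and no pairing. The members varied more than all genes and varied together, so that trial does not cover them. A fold change on this scale understates the change of low genes. Alternatives used edgeR 4.0.16, DESeq2 1.42.0, limma-voom, other filters, scalings and pseudocounts, and left out samples. Deviations of same-numbered samples correlated with r of 0.12 to 0.44 for the 5 numbers, lowest for number 4. Between different numbers the median was -0.21 and the range -0.45 to 0.36, so that number 4 did not stand apart from unmatched samples. Removing the group means lowers the values between different numbers where those of equal numbers lie above 0. The labels' protocols place both hairpins in each rat, but no label says that equal numbers are the same rat. The numbers were taken as pairs with this limit. P-values measure the spread between these samples.

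The members and all lists were chosen with earlier results of these data known. Values in each sample are given for called members, for Mki67, Top2a, Pcna and Cdk1, and for the most abundant member of a role group without a call. From each further list up to 4 called genes of largest change are named, and Cdkn1a. Promoters were read from a RefSeq table. Listed genes not found by symbol, Ccnb2 among them, were not analysed here.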

Additional observations from a re-analysis of the deposited data

Results flagged for a closer look

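Within each group of 5, a sample of a cell cycle gene was singled out when its distance to the nearest sample was large against the range of the group (Dixon's criterion). This held for 15 of 76 group values, where chance gives about 1 in 20, or 3.8, for independent values. The members varied together within the groups (median correlation 0.64), so the 15 cannot be read against that number. Of the 15, 9 were high values in shOpn3 replicate 4. They were Mki67 at 630 normalized counts (nearest sample 236), Top2a at 551 (191), Cdk1 at 115 (52.4), Kif20a at 103 (42.1), Ccna2 at 98.5 (39.3), Pbk at 79.2 (34.6), Birc5 at 68.6 (32.9), Melk at 52.2 (21.5) and Cdca3 at 45.4 (26.6).

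Low values in shControl replicate 1 made up 3 more, with Mki67 at 140 (nearest sample 194), Kif23 at 85.6 (103) and Bub1 at 53.0 (76.5). The other 3 were Kif20b at 42.1 in shControl replicate 4 (70.2), Melk at 29.5 in shControl replicate 2 (11.2) and Kif15 at 307 in shOpn3 replicate 3 (250).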

How the results depend on the processing

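Over 26 alternatives, 817 of 977 values of single genes kept their direction and side of the threshold, 87 were no longer called, 16 were newly called and 57 changed sign, the last in genes called in no fit. The count of 11 members called became 6 when all genes with at least 1 read were tested and 6 (5 higher, 1 lower) after quantile normalization. The count of 0 lower became 1 (Mcm7) with the replicate block in limma and in edgeR, in DESeq2 and in limma-voom with sample weights. The 21 pathway genes called became 33 in edgeR with the block and 35 in limma-voom. More genes of any kind were called with the block in limma too, 30.3% of all genes against 18.8% without it. The shares of all genes called in edgeR with the block, in limma-voom, with the 1-read filter and after quantile normalization are not given here. Leaving out a sample, or both samples of a number, gave 3 to 11 members called, 3 to 11 higher, 0 to 1 lower and 11 to 30 pathway genes. The shares that follow pool both directions. The lowest count, 3 (7.89% of the members, against 10.3% of all genes), came without both samples of number 3. The count was 5 (13.2%, against 12.1%) without number 2 and 10 (26.3%, against 17.5%) without number 1. Without number 4 or 5 it was 6 (15.8%), against 12.7% and 14.1% of all genes. With 12 higher and 1 lower, the block changed the calls of Aurka, Kif15, Tyms and Mcm7 among the members. The cause of these differences was not tested.

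Signs changed in edgeR and DESeq2 for Prc1 (0.033 and 0.041), Bub1b (0.035 and 0.043), Kif20a (0.13 and 0.14) and Cdca3 (-0.044 and -0.038), in edgeR with the block for Kif20a (0.00289) and Cdca3 (-0.015), in limma-voom for Mki67 (-0.016), Ccna2 (-0.19) and Cdc20 (0.094), and after quantile normalization for Ccna2 (-0.17), Ube2c (-0.21), Cdca3 (-0.18) and Pbk (-0.11). With samples left out, log2 fold changes ranged from -0.44 to 0.16 for Bub1b, -0.31 to 0.15 for Ccna2, -0.46 to 0.068 for Cdc20, -0.20 to 0.27 for Cdca3, -0.38 to 0.13 for Kif20a, -0.18 to 0.51 for Mki67, -0.23 to 0.22 for Pbk, -0.29 to 0.15 for Prc1, -0.13 to 0.47 for Top2a and -0.13 to 0.23 for Ube2c.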
